A study of Mus musculus with 8 samples.

Results

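The replication-dependent histone genes encode the core histones H2A, H2B, H3 and H4 and the linker histone H1, which package newly made DNA. Here they were taken as every gene of the count table named for histone cluster 1, 2, 3 or 4 (symbols that begin with Hist1h, Hist2h, Hist3h or Hist4h), 69 genes of 24516. Cluster 1 held 55 of them, cluster 2 held 10, cluster 3 held 3 and cluster 4 held 1. RefSeq calls 2 of the 69 pseudogenes, Hist1h2al and Hist3h2bb-ps. The libraries came from macrophages sorted from the hearts of C57BL/6 mice on postnatal day 28. Each of the 8 was labelled Nfatc1Cre/+; Rosa26Tomato reporter/+, a genotype in which Cre under Nfatc1, a gene of the endocardium, turns on a fluorescent reporter. The 4 libraries of endocardially derived cardiac tissue macrophages (EcTM) and the 4 of other cardiac macrophages (non-EcTM) fall into 4 pairs that share a title number: pair A is E591 and N591, pair B E592 and N592, pair C E604 and N604, and pair D E606 and N606, with E for EcTM and N for non-EcTM. The sources used here do not say what a shared number stands for, how the sort gates were drawn or how completely Cre labelled the lineage. No Cre-negative library was analysed here. No label says that the libraries of a group came from separate animals, so a p-value measures only the spread between these libraries.

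These genes are switched on as cells enter S phase and off again as replication ends, so their messenger RNA is a mark of cells copying their DNA. Most of these messengers have no poly(A) tail: they end just after a short RNA hairpin, the histone stem-loop, to which the stem-loop binding protein Slbp attaches for processing, export and translation. A library primed on poly(A) would largely miss them, whereas the kit used here is a random-primed one for total RNA. Most of the genes have no introns, and they lie in clusters that hold many nearly identical copies, which limits how a short read can be assigned to one copy. Tissue macrophages of the young heart renew in part by division in place.

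The stem-loop is shown because it defines this class of messenger and because its letters divide the members. A 16-base stem-loop, with stems of 6 bases around a loop of 4, was found after the stop codon in 44 of the 69 members. Of the other genes in the GENCODE M21 transcripts of GRCm38, coding or not, 0.154% had it anywhere in a transcript. It began 21 to 58 bases after the stop codon, with a median of 31. Of the 48 members with an annotated 3′ untranslated region of at least 60 bases, 42 had it. There were 6 forms, and 1 member of each is printed 5′ to 3′ with the paired stem bases in capitals.
Hist1h1e: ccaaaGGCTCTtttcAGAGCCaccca
Hist1h4d: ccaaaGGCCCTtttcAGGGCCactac
Hist1h3e: aaaacGGCTCTtttaAGAGCCacctc
Hist2h4: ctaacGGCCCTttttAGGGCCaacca
Hist1h4b: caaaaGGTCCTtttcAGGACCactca
Hist2h2ac: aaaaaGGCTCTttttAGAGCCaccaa
The form of Hist1h1e was shared by 26 members of classes H1, H2A, H2B and H3. The form of Hist1h4d was found in 7 members and those of Hist2h4 and Hist1h4b in 2 each, all of them H4 genes. The form of Hist1h3e was found in 6 members, and Hist2h2ac alone had the last. Annotated transcripts of 22 members ran more than 100 bases past the stem-loop.

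Promoters are shown for the 3 members whose differences between pairs had the smallest adjusted p-values. In RefSeq GRCm38.p6 these are the 250 bases before the start of Hist1h1e (chr13:23622559-23622808, minus strand), Hist1h1b (chr13:21780626-21780875, minus strand) and Hist1h4d (chr13:23581318-23581567, plus strand). Capitals mark the 4 motifs counted after the sequences, found on either strand.
Hist1h1e: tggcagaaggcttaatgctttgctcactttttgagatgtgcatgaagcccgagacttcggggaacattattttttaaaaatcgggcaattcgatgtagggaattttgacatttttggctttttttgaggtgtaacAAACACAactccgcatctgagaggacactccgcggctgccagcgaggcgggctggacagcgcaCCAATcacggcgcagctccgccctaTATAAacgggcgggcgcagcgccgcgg
Hist1h1b: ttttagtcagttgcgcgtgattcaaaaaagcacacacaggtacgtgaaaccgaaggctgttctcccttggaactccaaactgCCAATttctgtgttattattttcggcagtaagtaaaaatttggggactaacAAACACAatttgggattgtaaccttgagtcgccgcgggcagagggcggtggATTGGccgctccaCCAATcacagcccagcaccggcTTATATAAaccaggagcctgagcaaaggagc
Hist1h4d: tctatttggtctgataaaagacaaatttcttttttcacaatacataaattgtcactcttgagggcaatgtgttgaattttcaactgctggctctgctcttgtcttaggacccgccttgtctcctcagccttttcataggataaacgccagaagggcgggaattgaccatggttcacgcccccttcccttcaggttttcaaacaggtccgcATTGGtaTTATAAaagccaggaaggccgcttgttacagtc
RefSeq gave 63 promoters for 62 members. CCAAT, the CCAAT box, was in 82.5% of them against 33.8% of all 32851 promoters of the same length, and in 6 of 6 H1, 18 of 18 H2A, 17 of 17 H2B and 8 of 10 H3 but 3 of 12 H4 promoters. TATAA, the TATA box, whose reverse TTATA can overlap it, was in 65.1% against 22.8%. ATTTGCAT, the octamer known to bind Oct-1, was in 22.2% against 1.6%, in 7 of 18 H2A and 7 of 17 H2B promoters and in none of the H1, H3 or H4 promoters. AAACACA, an element known from H1 promoters, was in 14.3% against 6.25% and in 5 of 6 H1 promoters. In 13 places an H2A and an H2B gene stood head to head with 163 to 280 bases between them. Partners in such a pair could differ in total count: Hist3h2a had 402 counts and Hist3h2bb-ps 1, while Hist1h2ae had 88 and Hist1h2bg 129.

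The libraries held 2152425 to 2937464 counts each, of which the histone genes took 0.0316% to 0.101%. As a check of the labelled cell type, the summed level of 15 macrophage markers lay between 28723 and 31470 CPM (counts scaled to the library's size) in every library, although Itgam was at 0 in each. Endothelial markers summed to 32.5 to 337 CPM in EcTM and 87.3 to 890 CPM in non-EcTM. Cardiomyocyte markers summed to at most 166 CPM, fibroblast markers to at most 203 CPM and mural markers to at most 264 CPM. Erythroid and lymphoid markers summed to at most 7.46 CPM. The libraries of pair B had 1 and 8 counts of Xist, the RNA that silences one X chromosome in females, and 260 and 307 counts of the Y-linked gene Ddx3y. The other 6 had 935 to 1682 counts of Xist and 1 to 7 of Ddx3y. By these counts pair B did not share an animal with the other pairs. Whether pairs A, C and D came from separate animals cannot be read from them. A count of 0 allows up to 3 counts, or 0.990 to 1.43 CPM by library. Such floors cover counting error only.

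Of the 69 histone genes, 57 had at least 1 count, 27 passed the filter on low counts and were tested, 30 had counts but were not tested, and 12 were at 0 in all 8 libraries. The 6 H1 genes, for linker histones, held 54.1% of all histone counts, the 19 H2A genes 17.5%, the 13 H4 genes 15.3%, the 19 H2B genes 9.22% and the 12 H3 genes 3.87%. Per kilobase of gene, the highest mean levels over 8 libraries were those of Hist1h1e (192 CPM per kb), Hist1h1c (171) and Hist1h4d (95.4), followed by Hist1h2ak (48.3) and Hist2h2bb (47.7). The filter stood close to the low members: Hist1h2bn with 76 counts in all was tested, whereas Hist1h2bb with 90 was not, since the filter asks for a minimum level in at least 4 libraries. The 30 members with counts that were not tested had 1 to 90 counts in all and comprised 1 H1, 5 H2A, 11 H2B, 9 H3 and 4 H4 genes. Those at 0 were the H2A genes Hist1h2aa, Hist1h2ao, Hist1h2ap, Hist2h2aa1 and Hist2h2aa2, the H2B genes Hist1h2be, Hist1h2bp, Hist1h2bq and Hist1h2br, the H3 genes Hist2h3c1 and Hist2h3c2, and the H4 gene Hist1h4m.

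Class totals and single levels rest on reads that may fit several genes. How much of a member's coding sequence is shared with other genes was measured because it bears on every level given here. For the 67 members with an annotated coding sequence, the share of 50-base windows found in no other annotated gene had a median of 89.0% for H1, 28.8% for H4, 18.5% for H2B, 14.6% for H3 and 7.04% for H2A. H1 was thus highest both in unique sequence and in counts, and the part of shared sequence in the class totals was not tested. It was 28.2% for the 27 tested members, 21.9% for 28 members with counts that were not tested, and 0% for the 12 at 0 in every library. No unique window was found in 15 members, and 9 of those were at 0. The other 6 included Hist3h2a with 402 counts and Hist2h2bb with 461. Conversely Hist1h2aa, a testis form of H2A, had 76.0% unique windows and no count. The testis forms Hist1h1t and Hist1h2ba had 9 and 2 counts. The sources used here do not say how reads that match several copies were counted. Levels of H2A, H2B, H3 and H4 members that share windows, and the totals of these classes, are therefore uncertain, those at 0 included. Hist2h2be and Hist4h4, with 100% unique windows, shared no coding window by this measure.

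**Figure D1:**
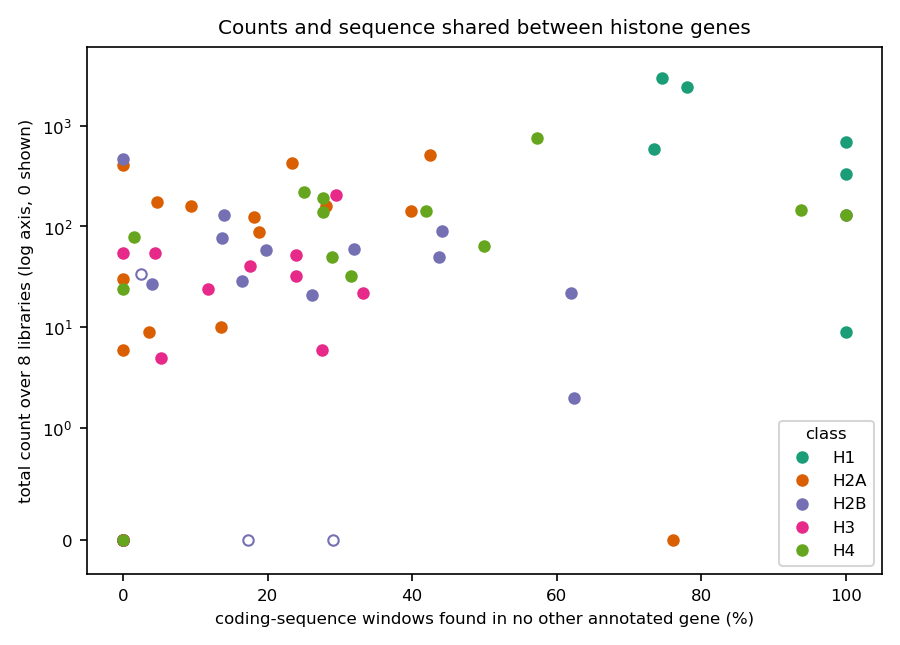
Total count over 8 libraries (vertical log axis, with 0 shown) against the share of 50-base coding windows found in no other annotated gene (horizontal axis, %), 1 point per member, coloured by class. Open circles are members with more than 1 curated transcript, and points at 0% and 0 counts lie on top of each other. The H1 genes lie at 73.5% or more, and most members at 0 counts lie at 0%.

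The first comparison asked whether EcTM and non-EcTM, 2 macrophage populations of hearts of the same age and genotype, differ in their histone messengers. Summed over the 69 genes, E591, E592, E604 and E606 were at 414, 328, 835 and 838 CPM. Their partners N591, N592, N604 and N606 were at 547, 445, 1008 and 807 CPM. The groups overlapped, and within each the libraries of pairs C and D were the high ones. The means were 604.1 ± 271 CPM (SD, n = 4) in EcTM and 702 ± 254 CPM (SD, n = 4) in non-EcTM, a log2 ratio of -0.22. EcTM was the lower in 3 of 4 pairs on this scale, with log2 ratios of -0.40 for pair A, -0.44 for B, -0.27 for C and 0.05 for D. As a plain share of all counts EcTM was lower in each of the 4 pairs, since in pair D the shares were 0.0824% and 0.0832%. Without N604 the log2 ratio of the means was 0.01, but this setting keeps E604, a library of a high pair, without its partner.

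The classes differed in how the pairs added to this, and whether they differ from one another was not tested. The sum of the H1 genes was lower in EcTM in 3 of 4 pairs (log2 ratio of means -0.24), as were those of H2A (-0.12), H3 (-0.14) and H4 (-0.16). For H2B it was lower in 4 of 4 (-0.40). The H4 difference lay mostly in pair A, with log2 ratios of -1.19, -0.0047, -0.06 and 0.12 in pairs A to D. For H2A the ratios were -0.43, -0.41, -0.03 and 0.08, and 5 of 9 tested members had fold changes above 0. In the H2B sum, EcTM was at 33.8, 29.0, 58.3 and 84.5 CPM in pairs A to D, against 43.3, 41.5, 96.8 and 89.1 CPM in non-EcTM, and the groups overlapped. No p-value is given for these sums, which are a description only.

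**Figure D2:**
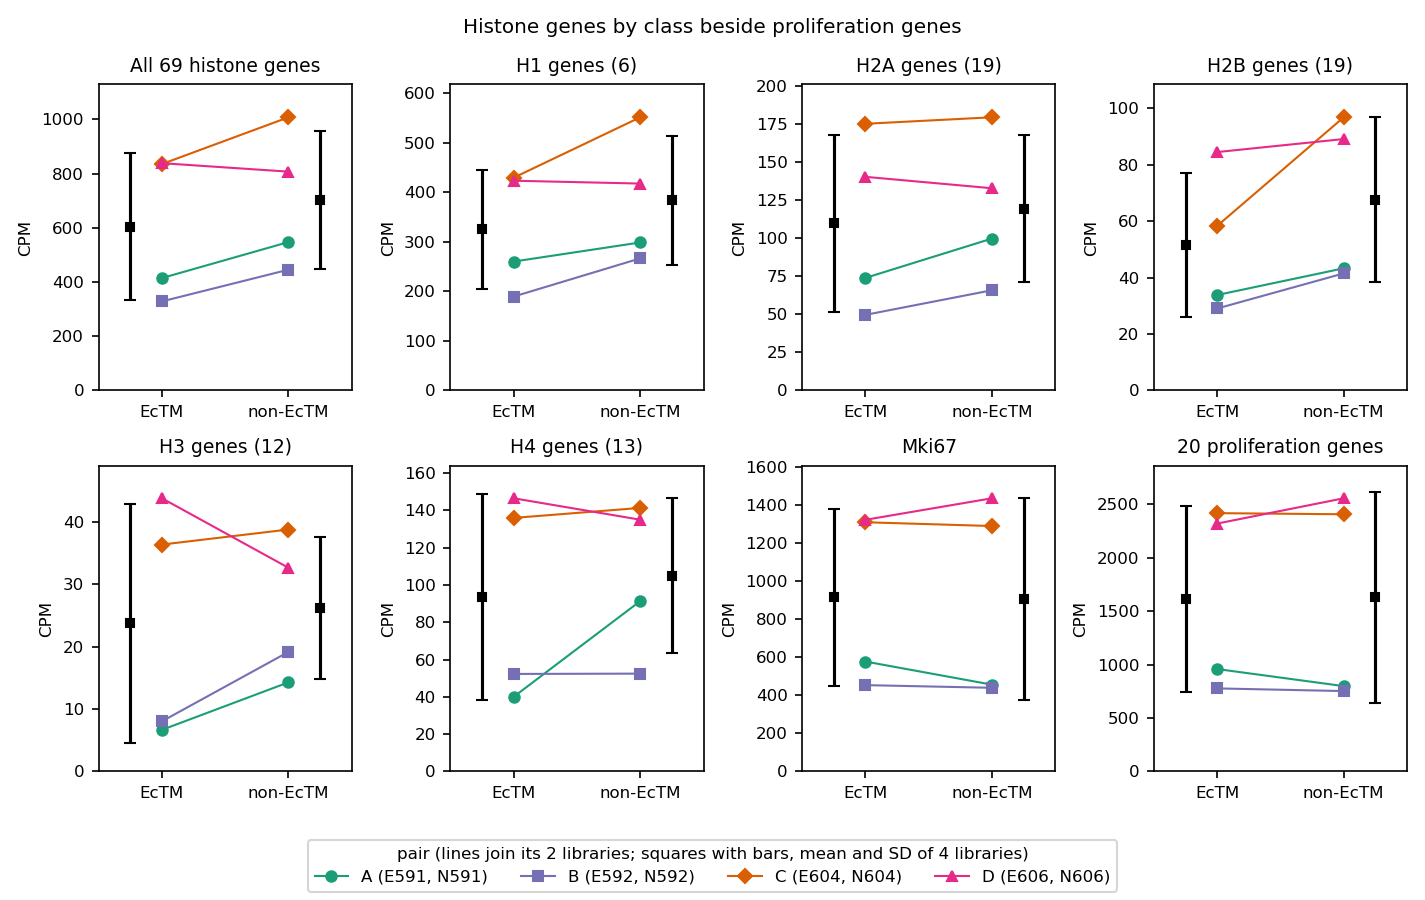
Level in CPM (vertical axes, from 0) in EcTM and non-EcTM libraries, summed over all 69 histone genes, over each class and over 20 proliferation genes, and for Mki67. The 20 proliferation genes include Mki67. Lines join the 2 libraries of a pair and black squares with bars give the mean and SD of 4 libraries. In each panel all 4 libraries of pairs C and D lie above all 4 of pairs A and B. For H2B the nearest of them were at 58.3 and 43.3 CPM.

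Markers of some other cells also stood lower in EcTM. The sum of 8 mural markers was 96.2, 71.9, 91.2 and 77.4 CPM in EcTM of pairs A to D and 264, 76.7, 191 and 100.01 CPM in non-EcTM, lower in EcTM in 4 of 4 pairs. The sum of 10 cardiomyocyte markers was 131, 79.1, 67.5 and 90.4 CPM in EcTM and 166, 83.8, 104 and 130.05 CPM in non-EcTM, again lower in 4 of 4. The endothelial sum was lower in EcTM in pairs A, B and C and higher in D, the same order as the histone sum. Fibroblast markers did not follow. Their sum was 131, 32.6, 42.5 and 25.3 CPM in EcTM and 203, 27.0, 27.5 and 40.3 CPM in non-EcTM. It was lower in EcTM in pairs A and D and higher in B and C. Fold changes were below 0 for 4 of 4 tested mural, 5 of 6 tested cardiomyocyte and 5 of 5 tested endothelial markers. For tested fibroblast markers it was 1 of 3, and none of these markers was called. The groups did not overlap for Mylk, a smooth muscle kinase, or Ttn, the giant sarcomere protein. Both were lower in EcTM, where 1.41% of all tested genes were lower without overlap. Myh11, Pdgfrb, Myh6, Tnnt2 and Pecam1 were at 0 in all 8 libraries, as 10197 genes of this table were. No level can be read from such a 0. The part of these cells in the histone values was not tested.

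Gene by gene, edgeR's quasi-likelihood test with Benjamini-Hochberg adjustment called none of the 27 tested histone genes between EcTM and non-EcTM at an adjusted p of 0.05, where it called 0% of all 7667 tested genes. At an unadjusted p of 0.05 it found 257 of all genes (3.35%) and 0 histone genes. With the pair as a replicate block it called 0.013% of all genes, 1 gene, and again no histone gene. At an unadjusted p of 0.05 the blocked fit found 414 of all genes (5.4%) and 4 of the 27 histone genes (14.8%): Hist1h1e, Hist1h1d, Hist1h2bg and Hist1h4a, each with a fold change below 0. The groups did not overlap for 0 histone genes in either direction, where 1.41% of all tested genes were lower and 1.29% were higher in EcTM without overlap. Of the 27 fold changes, 18 were below 0 and 9 above, with a median log2 value of -0.11 against 0.01 over all genes. In the blocked fit 22 were below 0 with a median of -0.35, against -0.01 over all genes, of which 51.5% were below 0. The median standard error was 0.75 for the histone genes and 0.31 for all genes, so the histone genes were measured with less precision than most genes.

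In 4 of 4 pairs EcTM was the lower for 4 of the 27 histone genes (14.8%), where 6.89% of all tested genes were, and the higher for 2 (7.41%), where 7.24% of all genes were. The 4 were the linker histone genes Hist1h1e and Hist1h1d, the H2A gene Hist2h2ab and the H2B gene Hist1h2bg. The 2 were Hist1h2af, an H2A gene, and Hist1h4b, an H4 gene. Hist2h2ab and Hist1h4b were named after their values were seen.

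Linker histone H1 binds the DNA that enters and leaves the nucleosome. Hist1h1e, which encodes H1.4, was at 93.9, 88.0, 171 and 191 CPM in E591, E592, E604 and E606 and at 120, 110, 235 and 193 CPM in N591, N592, N604 and N606, an order of pairs A to D kept for the genes that follow. EcTM was lower in each pair, yet the groups overlapped, because the libraries of pairs C and D exceeded those of A and B. Its means were 136 ± 52.6 CPM (SD, n = 4) and 164 ± 59.7 CPM (SD, n = 4), a log2 fold change of -0.27 (SE 0.27). In the blocked fit the log2 fold change was -0.28 (SE 0.14), with an unadjusted p of 0.0481 and an adjusted p of 0.914 by edgeR. Hist1h1d, which encodes H1.3, was at 9.05, 5.81, 55.3 and 28.0 CPM in EcTM and 21.8, 24.7, 55.4 and 35.3 CPM in non-EcTM. The gap between the groups was wide in pairs A and B and nearly absent in C. Its blocked log2 fold change was -0.82 (SE 0.35, adjusted p = 0.897 by edgeR). Hist1h1c, which encodes H1.2, was at 138, 77.7, 141 and 118 CPM in EcTM and 114, 106, 177 and 118 CPM in non-EcTM. The groups overlapped, both libraries of pair C lay above the other 6 and both of pair B below them. Hist1h1c was not called over the pairs or between C and B (log2 difference 0.79, SE 0.22, adjusted p = 0.0813 by edgeR). Hist1h1a, which encodes H1.1, was at 2.86 to 28.4 CPM in EcTM and 8.61 to 27.0 CPM in non-EcTM, with a log2 fold change of -0.72 (SE 0.57).

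H2A and H2B pair into the dimers at the outside of the nucleosome. Of the H2B genes, Hist1h2bg was at 1.43, 0, 2.19 and 9.08 CPM in EcTM and at 7.15, 1.17, 19.2 and 10.9 CPM in non-EcTM. Every pair showed less in EcTM, but 3 of its libraries had 3 counts or fewer. The blocked log2 fold change was -1.99 (SE 0.92, adjusted p = 0.907 by edgeR). Hist2h2bb, the H2B gene with the most counts, was at 20.5, 16.5, 22.8 and 31.2 CPM in EcTM and 10.3, 18.8, 41.4 and 26.7 CPM in non-EcTM. Its log2 fold change was -0.09 (SE 0.39), and 0.02 in the blocked fit. Hist2h2be had log2 fold change -0.66 (SE 0.70) and Hist1h2bn -0.20 (SE 1.11). Hist1h2bb, not tested, was at 0 to 3.07 CPM in EcTM and 0.397 to 13.2 CPM in non-EcTM. Among H2A genes, Hist1h2ak was at 13.8, 4.47, 28.9 and 50.9 CPM in EcTM and 21.4, 18.8, 37.9 and 30.7 CPM in non-EcTM, with the order of the groups turned in pair D. Hist2h2ac was at 9.08 to 25.7 CPM in EcTM and 7.04 to 42.7 CPM in non-EcTM. Hist3h2a was at 7.60 to 33.3 and 15.3 to 25.02 CPM, and Hist1h2ai at 0 to 21.5 and 4.31 to 13.1 CPM. None of these 4 had a log2 fold change past 1 standard error in the fit on the group alone. In the blocked fit that of Hist1h2ak was -0.48 (SE 0.38, adjusted p = 0.964 by edgeR). The other 5 tested H2A genes, Hist1h2af, Hist1h2ab, Hist2h2ab, Hist1h2ac and Hist1h2ae, at means of 4.63 to 8.89 CPM over 8 libraries, had log2 fold changes from -0.79 (Hist1h2ab) to 0.54 (Hist1h2ae).

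H3 and H4 form the tetramer at the centre of the nucleosome. Only 1 of 12 H3 genes could be tested: Hist1h3e was at 2.38, 3.13, 8.33 and 26.1 CPM in EcTM and 6.75, 5.87, 13.5 and 15.5 CPM in non-EcTM, with a log2 fold change of -0.05 (SE 0.69). Hist2h3b, Hist1h3b, Hist1h3c and Hist1h3d, the next in level, reached at most 13.1, 12.3, 4.77 and 7.02 CPM in any library and were not tested. Hist1h4d, the H4 gene with the most counts, was at 19.5, 31.7, 51.3 and 54.9 CPM in EcTM and 13.1, 16.8, 63.7 and 55.8 CPM in non-EcTM. Pairs A and B had more of it in EcTM, pairs C and D more in non-EcTM, and its log2 fold change was 0.08 (SE 0.45). Hist1h4a was at 0, 0.894, 8.77 and 17.4 CPM in EcTM and 20.3, 6.65, 20.5 and 12.9 CPM in non-EcTM. It was lower in EcTM in 3 of 4 pairs, with a blocked log2 fold change of -1.83 (SE 0.80, adjusted p = 0.897 by edgeR). Hist1h4h, Hist2h4 and Hist1h4c had log2 fold changes of -0.53 (SE 0.61), -0.68 (SE 0.75) and 0.15 (SE 0.76). The value of Hist1h4c was -0.30 in the blocked fit.

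**Figure D3:**
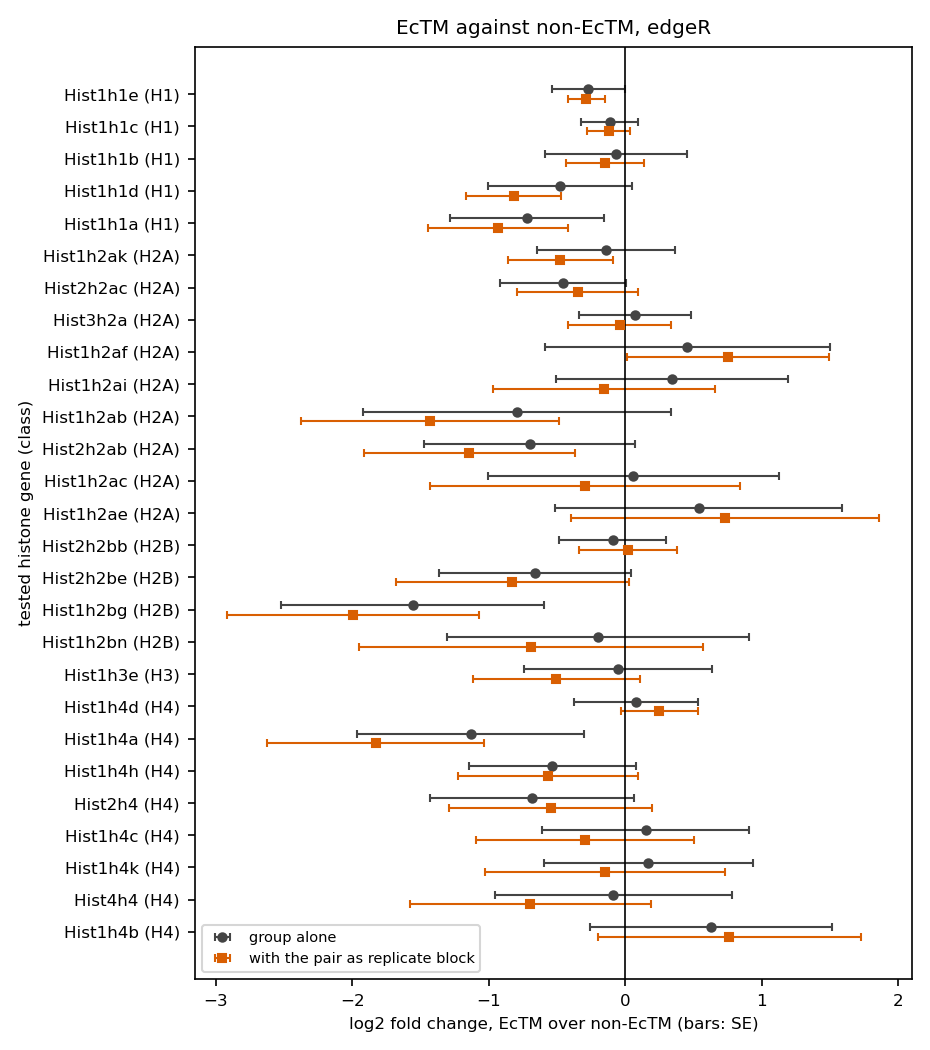
Log2 fold change of EcTM over non-EcTM (horizontal axis; bars, standard error) for the 27 tested histone genes, by class and then by level. Grey circles are the fit on the group alone and orange squares the fit with the pair as a replicate block. Most points lie left of 0, 18 in the first fit and 22 in the second, and none passed an adjusted p of 0.05.

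The libraries were also compared by pair, a comparison added after the values were seen. The mean summed histone level was 481 CPM in pair A, 387 in B, 921 in C and 823 in D, the highest 2.38 times the lowest. By class that ratio was 2.15 for H1, 2.46 for H2B, 2.69 for H4, 3.07 for H2A and 3.65 for H3. The highest pair was C for 15 and D for 10 of the 27 tested members, and A and B for 1 each. Hist1h2af and Hist1h4b passed the filter only through their levels in C and D, so the filter set their place in this count. Over all tested genes the highest pair was A for 26.7%, B for 25.4%, C for 24.0% and D for 23.9%. Whether a high pair holds more dividing cells or more histone RNA in each dividing cell cannot be told apart in bulk RNA.

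Tested over the 4 pairs with the group in the model, 5 of the 27 histone genes (18.5%) passed an adjusted p of 0.05 by edgeR, where 3.04% of all tested genes did. They were Hist1h1e (adjusted p = 0.00072), Hist1h1b (0.00113), Hist1h4d (0.0104), Hist1h2af (0.0126) and Hist1h1d (0.0228). Hist1h2af passed the filter on low counts only through its levels in pairs C and D, so its call between pairs gives no support of its own. This test sets the difference between pairs against the spread between the 2 sorts of a pair, so if these came from 1 heart it is not a test over animals. The count was 2 without E606 or without N606, 3 without E604, and 3 without both libraries of pair C or both of pair D.

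Hist1h1b, which encodes H1.5, was at 15.2, 10.3, 52.6 and 56.5 CPM in EcTM of pairs A to D and at 16.3, 16.05, 62.8 and 46.5 CPM in non-EcTM. All 4 libraries of pairs C and D were above all 4 of A and B, in both groups alike. The log2 difference of pair C over A was 1.87 (SE 0.41, adjusted p = 0.0192 by edgeR) and that of D over B was 1.98 (SE 0.41, adjusted p = 0.0145). For Hist1h1e the same 2 differences were 0.92 (SE 0.19, adjusted p = 0.0126) and 0.97 (SE 0.19, adjusted p = 0.00965). Hist1h1b and Hist1h1e were the members that passed in all of the 4 contrasts of C or D with A or B. By pair means, Hist1h1b differed 4.39 times between its highest and lowest pair, Hist1h1d 3.63 times, Hist1h1e 2.04 times and Hist1h1c 1.73 times (adjusted p over the pairs 0.227). Whether the linker histone genes differ from one another in this was not tested.

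Hist1h4d averaged 16.3, 24.3, 57.5 and 55.3 CPM in pairs A to D, with a log2 difference of 1.85 (SE 0.41, adjusted p = 0.0197 by edgeR) for C over A. Hist1h2af had 3 and 0 counts in E591 and N591 and 3 and 2 in E592 and N592, against 54 and 36 in E604 and N604 and 37 and 41 in E606 and N606. Its 2 low pairs are at or under 3 counts a library, so no fold is given. Only 4.69% of its coding windows are unique, so its counts are uncertain between copies. Hist1h2ab, named after its values were seen, was at 0 in both libraries of pair A and averaged 4.11, 11.4 and 15.6 CPM in B, C and D (adjusted p = 0.0508). It passed in the contrasts of C with A (adjusted p = 0.0455 by edgeR) and of D with A (adjusted p = 0.0205).

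Of the contrasts between 2 pairs, C against A called 6 of 27 histone genes (22.2%) where 1.34% of all genes were called. For D against A it was 4 (14.8%) where 1.51% were, for C against B it was 3 (11.1%) where 1.49% were, and for D against B it was 2 (7.41%) where 0.848% were. Each of these was the higher in C or D. Those called for C against A include Hist1h2af and Hist1h2ab, and those for D against A include Hist1h2ab. Pair A had 3 and 0 counts of Hist1h2af and 0 and 0 of Hist1h2ab, so these calls rest on counts at the floor. Hist1h2af was also tested only through its levels in pairs C and D. Between B and A (1.24% of all genes) and between D and C (0.73%), 0 histone genes were called.

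**Figure D4:**
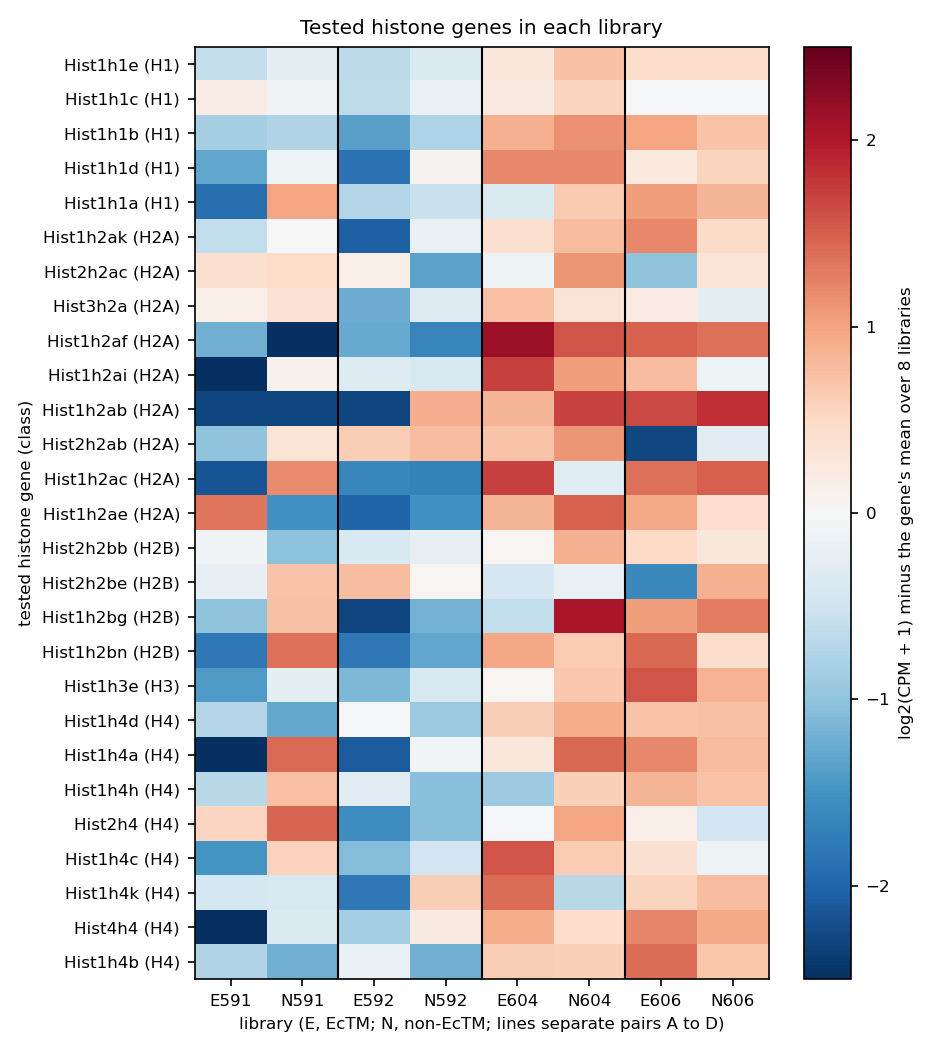
Level of the 27 tested histone genes (rows, by class and then by level) in each library (columns, by pair, E for EcTM and N for non-EcTM). Colour is log2(CPM + 1) minus the gene's mean over the 8 libraries. The 4 columns of pairs C and D are mostly red and those of A and B mostly blue, with Hist1h1c, Hist2h2ac and Hist2h2be among the rows that do not follow.

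Mki67, which encodes the Ki-67 protein of cycling cells, was set beside these genes. It was at 577, 453, 1308 and 1321 CPM in EcTM of pairs A to D and at 456, 439, 1289 and 1434 CPM in non-EcTM. Both groups were high in pairs C and D and low in A and B, as the histone sum was. Between the groups the log2 fold change was 0.02 (SE 0.38), and 0.07 (SE 0.08) in the blocked fit. Between the pairs Mki67 differed with an adjusted p of 4.71e-11 by edgeR, and its highest pair mean was 3.09 times the lowest. The summed histone level divided by that of Mki67 was 0.718, 0.725, 0.638 and 0.634 in EcTM and 1.20, 1.01, 0.782 and 0.563 in non-EcTM. This ratio was higher in non-EcTM in pairs A, B and C and lower in D, and the groups overlapped. It was lowest in N606, the library with the highest Mki67.

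A proliferation list was chosen with earlier results of these data known. Of its 14 tested genes, 10 passed in the test over the 4 pairs, where 3.04% of all tested genes did. Among the 10 were Top2a (topoisomerase of chromosome separation), Cenpf (a kinetochore protein) and Bub1b (a checkpoint kinase). Between the groups 0 of the 14 passed. Plk1, a mitotic kinase, was at 3.33, 2.68, 21.1 and 8.69 CPM in EcTM and at 10.3, 5.87, 36.2 and 22.1 CPM in non-EcTM. It was the lower in EcTM in 4 of 4 pairs, as was Cdk1, the kinase that drives entry into mitosis. Of all tested genes 6.89% were. In the blocked fit their log2 fold changes were -1.19 (SE 0.49, unadjusted p = 0.0219, adjusted p = 0.874 by edgeR) and -0.99 (SE 0.47, unadjusted p = 0.047, adjusted p = 0.914). These 2 of the 14 were under an unadjusted p of 0.05 in that fit, where 5.4% of all genes were. In the fit on the group alone 10 of the 14 fold changes were below 0 and 4 above. The sum of the proliferation list was 958, 777, 2416 and 2318 CPM in EcTM and 798, 751, 2405 and 2555 CPM in non-EcTM. That sum was higher in EcTM in pairs A, B and C and lower in D. Mki67 is in the list and held 1308 of the 2416 CPM in E604 and 1289 of the 2405 CPM in N604. The sum is therefore no measure apart from Mki67. Bub1b was at 20.5, 11.2, 58.3 and 64.0 CPM in EcTM of pairs A to D and at 10.3, 27.4, 93.3 and 71.0 CPM in non-EcTM. Of 14 tested DNA replication genes, 1 passed in the test over the 4 pairs: Mcm3, a subunit of the replicative helicase, was at 253, 164, 311 and 317 CPM in EcTM and 181, 185, 265 and 246 CPM in non-EcTM. In the contrast of D with A, Pole, the catalytic subunit of a leading-strand polymerase, also passed, with a log2 difference of 2.01 (SE 0.49, adjusted p = 0.031 by edgeR). The list's sum was 628 to 642 CPM in the 4 libraries of pairs A and B and 888 to 1104 CPM in those of C and D. It was the higher in EcTM in each pair.

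Replacement histones, which are made throughout the cell cycle from polyadenylated messengers, were called in 0 of 6 tested genes over the 4 pairs and in 0 between the groups. Of the 11 listed, Cenpa, H2afy and H2afz were at 0 in all 8 libraries and could not be tested. H2afx, a DNA damage variant whose messenger exists in both forms, was at 58.1, 46.0, 101 and 82.9 CPM in EcTM and 54.8, 70.1, 104 and 104 CPM in non-EcTM (adjusted p over pairs 0.11 by edgeR). Factors of histone messenger synthesis and processing had 0 of 11 tested genes called between the groups or in the test over the 4 pairs. In the contrast of C with A 1 of them was called, higher in C: Ncbp2, a cap-binding subunit, named after its values were seen. Npat, which switches on histone transcription, was at 71.9, 39.3, 63.2 and 62.4 CPM in EcTM and 27.4, 39.9, 40.1 and 60.1 CPM in non-EcTM, a log2 fold change of 0.50. Eri1, an exonuclease that trims and degrades histone messengers, had a log2 fold change of -0.37. Slbp itself was at 0 in all 8 libraries, as 10197 genes of this table were, and no level can be read from that. Histone chaperones, which hand histones to DNA, had 0 of 10 tested genes called.

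Other features also differed between the pairs. The endothelial sum was 337 and 890 CPM in E591 and N591, 50.5 and 87.3 in E592 and N592, 32.5 and 147 in E604 and N604 and 233 and 116 in E606 and N606, and 4 of 5 tested endothelial markers passed between the pairs. It was high in pair A and low in B, both of them pairs with a low histone sum. Of the fibroblast markers 2 of 3, of the macrophage markers 4 of 14 and of the mural markers 1 of 4 passed as well, and 0 of 6 of the cardiomyocyte markers. Over all tested genes 3.04% passed in that test. Pair B, the one with high Ddx3y counts, had a low histone sum, as had pair A, in which they were low. The part of other cells, of sex and of whatever else a pair shares in the histone differences was not tested.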

How the data were processed

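Per the labels, RNA of the sorted cells was made into libraries with a stranded total RNA kit, one that primes with random oligonucleotides. The submitters' processing notes name bcl2fastq 2.17, TopHat, DESeq2, R 3.2 and mm10, and the deposited table holds raw counts per gene. For the counting program, annotation, strand setting and treatment of multiply mapped reads, nothing is given in the sources used here. The log2 values that the authors also deposited were not used.

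Members were fixed by symbol, and the other lists were chosen with earlier results of these data known. Counts were fitted in edgeR 4.0.16 (R 4.3.3) by its quasi-likelihood test on the group, with TMM scaling and filterByExpr, which left 7667 genes holding 99.3% of counts, and p-values adjusted over all of them at 0.05. CPM values use TMM library sizes. A fit with the pair (shared title number) as replicate block and one with DESeq2 1.42.0 were alternatives, beside other scalings, filters and left-out libraries. Deviations from the group means correlated at 0.12 to 0.19 in the 4 pairs of libraries that share a number and at -0.13 to 0.05 in the 12 others, so the numbers were taken to pair the libraries. The test over 4 pairs and its 6 contrasts were added after the values were seen. Per class, the 5 members highest in mean CPM were named, with any at an unadjusted p under 0.05, Mki67 and up to 4 genes of each other list with the smallest p. Top2a and Cenpf fall outside this rule and were chosen after their values were seen. All members matched RefSeq GRCm38.p6 by gene ID. The fits were tested on simulated data.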

Additional observations from a re-analysis of the deposited data

Results flagged for a closer look

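Groups of 4 libraries were searched for a library standing apart from the other 3, over 64 groups, of which chance would mark about 1 in 20. In N604, Hist1h1c was at 177 CPM, against 106 to 118 CPM in N591, N592 and N606. In N606, Hist1h3b was at 4.95 CPM, against 0.397 to 0.872 CPM in N591, N592 and N604. In N592, Hist1h4h was at 3.52 CPM, against 13.1 to 14.7 CPM in N591, N604 and N606. Neither Hist1h1c nor Hist1h4h was called between groups or pairs, and Hist1h3b was not tested.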

How the results depend on the processing

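No histone gene was called between EcTM and non-EcTM in any of 20 alternatives (other scalings and filters, DESeq2, the replicate block, each library or each pair left out). Over all genes 0 were called between the groups, against 7 with no filter on low counts, 1 with the replicate block in edgeR, 17 with the replicate block in DESeq2, 0 to 1 with 1 library left out, and 1 to 2 with a pair left out under the block. The blocked fit changed no call of a histone gene or of Mki67. The histone genes called between pairs, 5, were 2 to 5 with 1 library left out and 3 without pair C or pair D. Over all genes the 233 called between pairs became 350 with no filter, 439 with DESeq2, 150 to 199 with 1 library left out, 148 without pair A or pair D and 146 without pair B. The summed log2 ratio ran from -0.42 to 0.01 with 1 library left out. Such a fit keeps the partner unmatched, so this range and those that follow for 1 library also take in differences between pairs. The log2 fold change of Mki67, not past the threshold, ran over -0.22 to 0.33 with 1 library left out and was -0.018 without pair A under the block. Of the 20 named histone genes tested (the other tested members were not followed here), those whose fold change, not past the threshold in any of these fits, also changed sign with 1 library left out were Hist1h1b (-0.44 to 0.35), Hist1h1c (-0.21 to 0.076), Hist1h2af (-0.36 to 1.08), Hist1h2ai (-0.50 to 0.78), Hist1h2ak (-0.79 to 0.21), Hist1h2bn (-1.07 to 0.34), Hist1h3e (-1.17 to 0.28), Hist1h4c (-0.83 to 0.49), Hist1h4d (-0.20 to 0.45), Hist2h2bb (-0.34 to 0.28) and Hist3h2a (-0.23 to 0.35). With the replicate block in edgeR and in DESeq2 the sign turned among these for Hist1h2ai (-0.16 and -0.19), Hist1h4c (-0.30 and -0.30), Hist2h2bb (0.019 and 0.023) and Hist3h2a (-0.039 and -0.033), and in edgeR also for the other tested members Hist1h2ac (-0.30) and Hist1h4k (-0.15). With a pair left out under the block it turned among the named genes for Hist1h2ai (-0.22 without B, -0.65 without C, -0.66 without D), Hist1h2bn (0.47 without A), Hist1h4c (-0.13 without B, -0.86 without C, -0.67 without D), Hist2h2ac (0.0056 without C, 0.020 without D), Hist2h2bb (0.089 without B, 0.33 without C) and Hist3h2a (-0.22 without C, -0.23 without D). The cause was not tested. Another scaling moved the median of all genes by under 0.1 on the log2 scale.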
